A study of Glycine max with 4 samples.

Results

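P05 is a line of the fast neutron (FN) soybean population that was made by irradiating the line “M92-220”. Genomic DNA of P05 was compared with DNA of “M92-220” by array comparative genomic hybridization (aCGH) on 2 of the 4 arrays analyzed, chosen by the P05 title and carrying leaf DNA of plant 15 and of plant 39. The other 2 arrays carried leaf DNA of plants 35 and 45 of line P06. Its label ends like one of the names of the high-sucrose and low-oil mutant for which the study was made. All 4 plants were mutant plants, each hybridized against “M92-220” (labeled M92-220-Long), with mutant DNA in Cy3 and “M92-220” DNA in Cy5. The study's families were harvested in bulk over several generations, so the plants of a line need not share a genotype, and each P05 plant was measured on 1 array.

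FN irradiation breaks chromosomes and leaves deletions, duplications and rearrangements. In an inbreeding plant such as soybean a new deletion is first carried on one homolog, and in the selfed offspring it is either lost, carried on one homolog or carried on both. Sister plants that descend from before a deletion was fixed can therefore differ at that locus. In aCGH a sequence missing from both homologs leaves mutant signal near background, a loss from one homolog gives an intermediate ratio, and a sequence difference under a probe may also change its signal. Seed lines are often mixtures of closely related haplotypes too, and such haplotypes differ from a reference in scattered short stretches, in both directions.

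The ratio used here is the log2 of Cy3 over Cy5 processed signal, averaged per probe and centered on the median of its array, so that 0 is the typical probe and a negative value is less signal from the mutant. The array held 951615 probes, typically 60 bp long and 474 bp apart (medians). The median Cy3 signal was 1038 in plant 15 and 1054 in plant 39, and Cy3 was well above background at 99.2% and 98.7% of the probes. The spread of ratios between neighboring probes was 0.133 in plant 15 and 0.144 in plant 39. Outside a few loci the profiles were flat, with chromosome medians from -0.029 to 0.022 over the 20 chromosomes in both plants. The robust SD of plant 39 minus plant 15 lay between 0.123 and 0.127 on every chromosome.

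The plants of P05 were low at different parts of the genome, and few low regions were shared. Low regions, taken as regions of at least 3 probes with a mean log2 ratio of -2 or lower, were compared between the plants. They covered 22 probes in both plants, 547 probes in plant 15 alone and 368 probes in plant 39 alone. Plant 15 had 4 loci of its own, on chromosomes 6, 10 (2 loci) and 14, and plant 39 had 5 loci of its own, on chromosomes 1, 7, 14 (2 loci) and 20. The 2 other low loci, on chromosomes 16 and 18, were low in both. At its own 4 loci plant 15 went with both P06 plants and against plant 39, although the labels place plants 15 and 39 in 1 line. The labels were kept, and each plant is given by itself. Regions were found on these ratios and are described without a test, and positions are those of the probes on Glyma.Wm82.a2.v1. The genes inside the loci were not analyzed here.

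**Figure D1:**
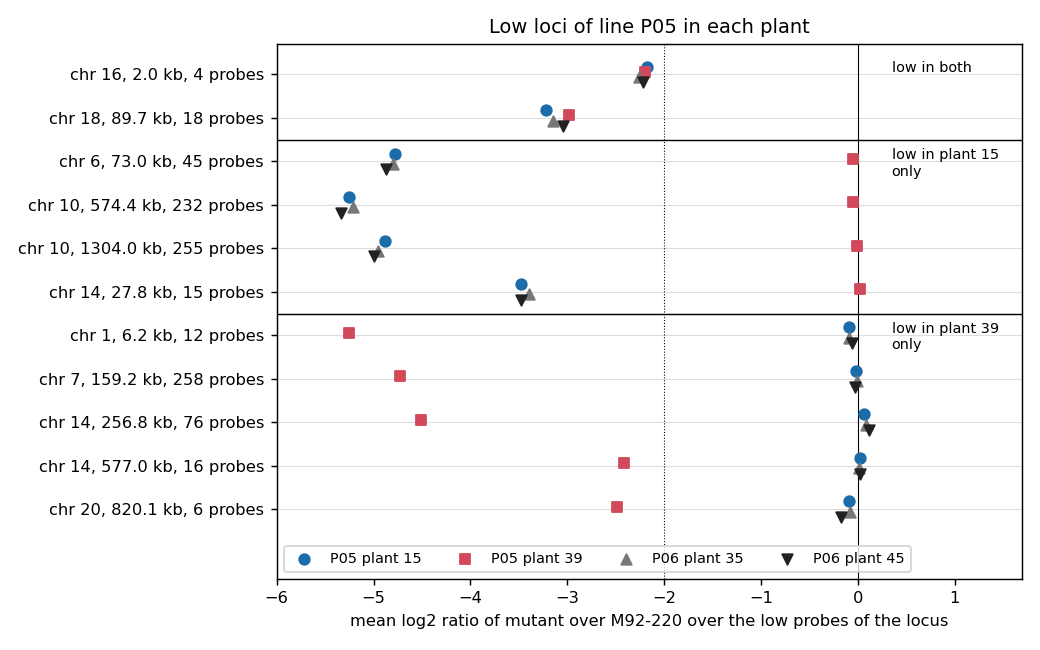
Mean log2 ratio of mutant over “M92-220” (horizontal axis) at each of the 11 low loci of line P05, with 1 symbol per plant and the length and number of low probes of each locus on the vertical axis; the dotted line marks the limit of -2. At the loci low in plant 15 only, plant 39 stands near 0 and both P06 plants stand with plant 15, and at the loci low in plant 39 only the other 3 plants stand near 0.

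The largest locus low in plant 15 only spanned 1304 kb of chromosome 10, from 19986042 to 21290005. Its 255 low probes had a mean log2 ratio of -4.88 in plant 15 and -0.012 in plant 39. The medians were -5.34 in plant 15 and -0.018 in plant 39, and the probes ranged from -7.98 to -0.56 and from -0.63 to 0.70, so the plants overlapped only at the ends of their ranges. In P06 the means were -4.95 in plant 35 and -4.99 in plant 45, so both P06 plants were as low as plant 15. Probes were sparse here, at 1 probe per 4.94 kb between the ends of the locus. The nearest probe to the right lay 69147 bp away.

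A second locus on chromosome 10, from 14796450 to 15370810, spanned 574 kb. Its 232 low probes had a mean of -5.25 in plant 15 and -0.054 in plant 39. All 232 were at -1 or lower in plant 15, and 1 was in plant 39. The P06 means were -5.22 in plant 35 and -5.34 in plant 45. The nearest probe to the right of the locus lay 30196 bp away.

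On chromosome 6, the locus from 18128869 to 18201820 spanned 73.0 kb with 45 low probes. The mean was -4.78 in plant 15, where the probes ranged from -7.59 to -1.13. In plant 39 the mean was -0.054 and the probes ranged from -0.49 to 0.45, with no overlap between the plants. The P06 means were -4.80 in plant 35 and -4.88 in plant 45. The nearest probe to the left lay 50650 bp away, at 0.09 in plant 15, and the nearest to the right lay 4232 bp away, at -0.29, so the left end is poorly placed by this array.

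The smallest locus missing from plant 15, on chromosome 14 from 26774074 to 26801907, spanned 27.8 kb with 15 low probes. The mean was -3.48 in plant 15 and 0.027 in plant 39. The P06 means were -3.39 in plant 35 and -3.48 in plant 45. At all 4 loci the P06 plants therefore resembled plant 15 and not its labeled sister, plant 39.

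Of the loci low in plant 39 only, the one with most low probes was on chromosome 7, from 42193750 to 42352938. It spanned 159 kb with 258 low probes, at 1 probe per 0.608 kb. The mean was -4.72 in plant 39 and -0.020 in plant 15. The ends were tight, with the nearest outside probes 283 bp to the left and 307 bp to the right. The right one was at 0.16 in plant 39, whereas the left one was at -1.58 in plant 39 and 0.22 in plant 15.

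On chromosome 14, the locus from 14337661 to 14594509 spanned 257 kb with 76 low probes. The mean was -4.51 in plant 39 and 0.060 in plant 15. On chromosome 1, a 6.18 kb locus from 25162702 to 25168882 had 12 probes, with a mean of -5.25 in plant 39 and -0.094 in plant 15. All 12 probes were at -1 or lower in plant 39 and none were in plant 15, and the range was -8.17 to -1.12 against -0.29 to 0.027.

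The remaining loci of plant 39 were scattered rather than continuous. On chromosome 14 from 45178835 to 45755804, 4 short regions with 16 low probes (mean -2.41 in plant 39 and 0.026 in plant 15) lay among 928 probes over 577 kb, whose mean over all probes was -0.13 in plant 39. On chromosome 20 from 36723392 to 37543471, 2 short regions with 6 low probes (mean -2.49 in plant 39 and -0.087 in plant 15) lay among 1442 probes over 820 kb. The probes of these regions were uneven in plant 39. They ranged from -5.65 to -0.10 on chromosome 14, with 12 of 16 at -1 or lower. On chromosome 20 they ranged from -6.17 to -0.17, with 4 of 6 at -1 or lower. At none of the 5 loci of plant 39 did P06 go along, and over all 368 low probes the means were 0.0048 in plant 35 and 0.0031 in plant 45.

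**Figure D2:**
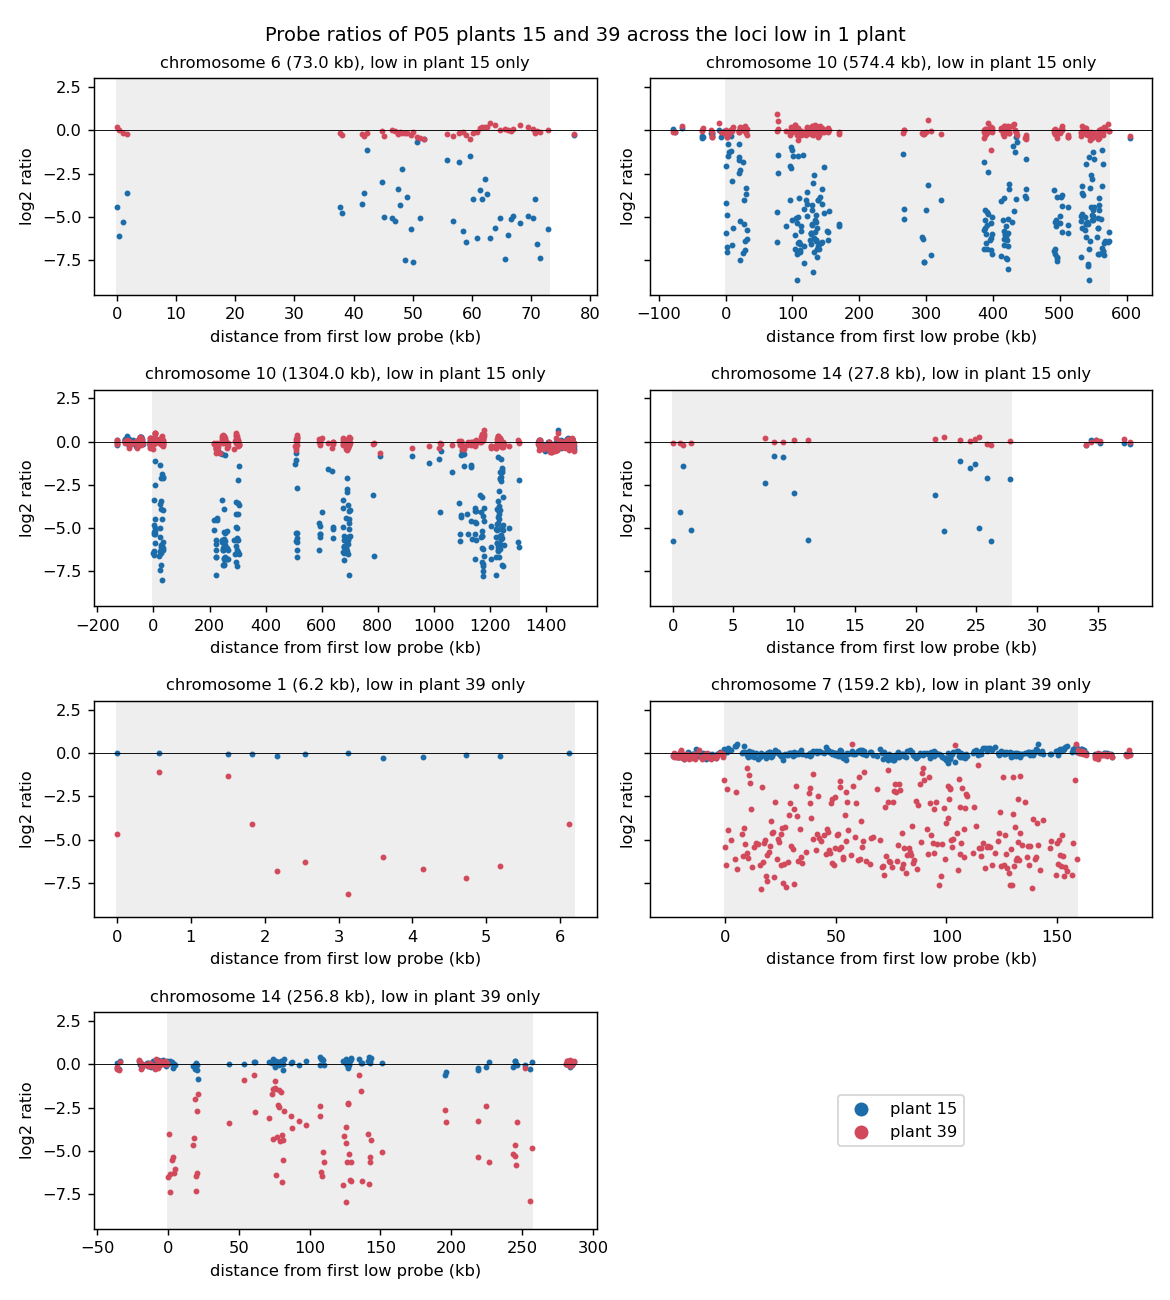
Log2 ratio of mutant over “M92-220” of each probe (vertical axis) in plants 15 and 39 against the distance from the first low probe of the locus in kb (horizontal axis), for the 7 loci with a continuous low stretch; the gray band spans the locus. Within each band one plant falls to low values while the other stays near 0, and outside the band both lie near 0 apart from 1 probe at -1.58 in plant 39, just left of the chromosome 7 locus.

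Most of the low probes were dim in the low plant. Over the 547 low probes of plant 15 the median Cy3 signal was 20.03 in plant 15 and 1070 in plant 39, and over the 368 of plant 39 it was 21.3 in plant 39 and 1040 in plant 15. The scanner software did not place Cy3 well above background at 387 of the 547 probes in plant 15 nor at 243 of the 368 in plant 39, so the means are bounds. With each such signal raised to the lowest one that was well above background, plant 15 had at least 15.1-fold less signal than “M92-220” and plant 39 at least 12.1-fold less, as the average over these probes. The “M92-220” signal was present, with a dim Cy5 at 0 of the 547 probes in plant 15 and at 3 of the 368 in plant 39.

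The plant that kept a locus showed few intermediate ratios there. In plant 39, 6 of the 547 probes low in plant 15 lay between -1.5 and -0.5 and 0 lay at or below -1.5. In plant 15, 3 of the 368 probes low in plant 39 lay between -1.5 and -0.5 and 0 lay at or below -1.5. The SD among probes was 0.218 in plant 39 and 0.182 in plant 15. Each of the 7 continuous loci thus had a mean of -3.48 or lower in one plant and lay near the array median in the other.

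A profile of the line mean hid this split. Searched in the same way, the mean of the 2 plants held 42 low regions with 789 probes over 1490 kb. Of these, 21 regions with 470 probes came from plant 15 alone and 15 regions with 293 probes from plant 39 alone. Their line means lay between -3.30 and -2.12, which is the average of a low plant and an unchanged one. The other 6 regions, with 26 probes over 12.3 kb, were low in both plants. At the 1304 kb locus on chromosome 10, for example, the line mean was -2.44 ± 3.44 (SD, n = 2).

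Probe by probe, the difference between the plants was tested with limma against a difference of 1. Because each plant has 1 array, the spread came from the P06 plants, and the test compares these arrays. Plant 39 was lower at 460 probes (0.0484% of 951298) and higher at 687 (0.0722%) at an adjusted p under 0.05. Of these 1147 probes, 505 were higher and lay in the 4 loci of plant 15, 323 were lower and lay in the chromosome 1, 7 and first chromosome 14 loci of plant 39, and 81 lay in the stretches on chromosomes 6, 14 and 20 described below. The loci and stretches were set on these same ratios, so calls inside them are no separate support for them.

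The other 238 called probes were scattered, with 6 to 22 on each chromosome. Plant 39 was higher at 136 of them and lower at 102. At 80.7% of them the “M92-220” signal was not well above background on the plant 39 array, against 1.11% of all probes, and at 37.8% on the plant 15 array, against 0.663%. The part of dim signal in these calls was not tested.

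**Figure D3:**
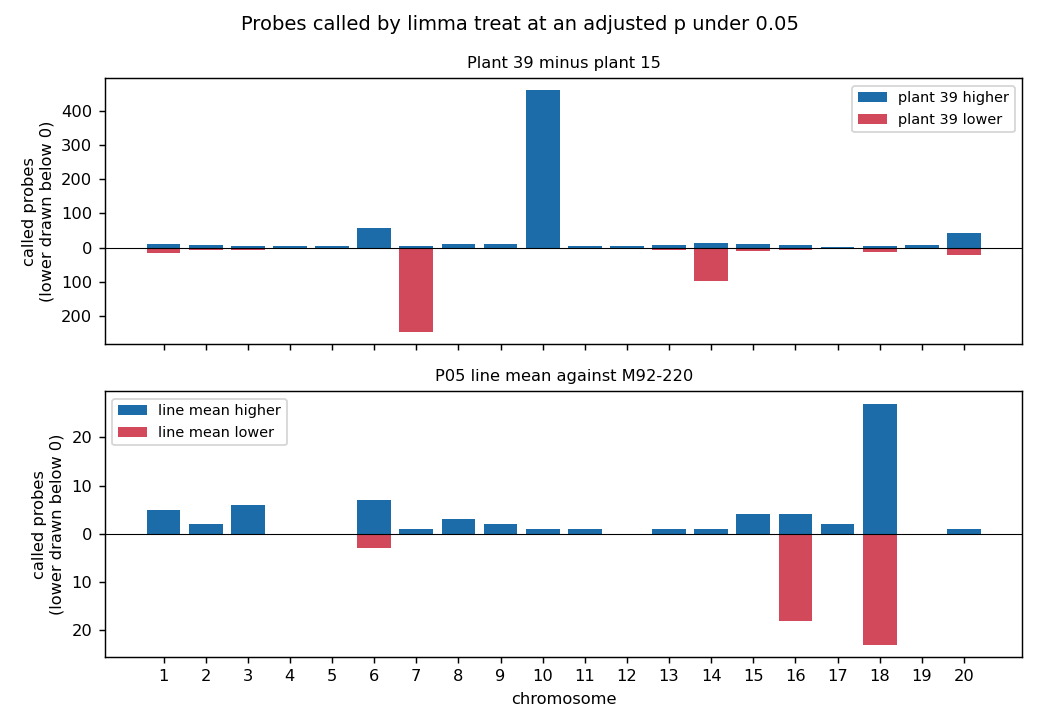
Number of probes called by limma treat at an adjusted p under 0.05 on each of the 20 chromosomes (horizontal axis), with higher probes drawn above 0 and lower probes below 0; the upper panel is plant 39 minus plant 15 and the lower panel the P05 line mean against “M92-220”. Chromosome 10 holds 460 of the 687 higher probes of the difference and chromosome 7 holds 246 of the 460 lower ones, whereas the lower probes of the line mean lie on chromosomes 6, 16 and 18.

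Against “M92-220”, plant 15 was lower at 594 probes (0.0624%) and higher at 301 (0.0316%), and plant 39 was lower at 529 (0.0556%) and higher at 474 (0.0498%), by the same limma test with each plant's spread taken from P06. The P05 line mean was lower at 44 probes (0.00463%) and higher at 68 (0.00715%). Its lower probes were shared across all 4 plants. All 44 were beyond 1 in plants 15 and 39 and also at -1 or lower in both P06 plants. A ratio shared by all plants cannot be told apart from a feature of the “M92-220” DNA that every array carried.

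Of the 44, 18 lay on chromosome 16 between 1240970 and 1740774, and averaged -4.25 in plant 15 and -4.26 in plant 39. Another 23 lay on chromosome 18 between 12816644 and 14710611, and averaged -3.45 in plant 15 and -3.37 in plant 39. The last 3 lay on chromosome 6 between 12323434 and 12933114, and averaged -3.91 in plant 15 and -3.99 in plant 39. The P06 means at these probes were -4.17 and -4.28 on chromosome 16, -3.39 and -3.30 on chromosome 18, and -3.88 and -4.26 on chromosome 6, for plants 35 and 45 in turn.

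The loci low in both plants lay in the same places. The region of chromosome 16 from 1609283 to 1611243 had 4 probes that averaged -2.18 in plant 15 and -2.20 in plant 39, and -2.26 and -2.22 in P06 plants 35 and 45. The medians there were only -1.21 in plant 15 and -1.10 in plant 39, with a lowest probe at -5.51 and -6.05. In each of these plants 2 of the 4 probes were at -1 or lower. On chromosome 18, 4 regions from 13125971 to 13215670 had 18 low probes among 92, averaging -3.22 in plant 15, -2.98 in plant 39, -3.15 in plant 35 and -3.05 in plant 45. Just outside the limit of -2, the 13 probes of chromosome 16 from 1364773 to 1370840 averaged -1.79 in plant 15 and -1.86 in plant 39.

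With the limit moved to -1, plant 39 gained 25 regions with 318 probes on 14 chromosomes at which plant 15 lay between -0.5 and -1. Plant 39 lay from -1.49 to -1.002 there and plant 15 from -0.996 to -0.68. The one with most probes, 44 on chromosome 14 from 10360717 to 10415797, averaged -1.05 in plant 39, -0.68 in plant 15, -0.83 in plant 35 and -0.90 in plant 45. Both P06 plants lay between the P05 plants in 23 of the 25. These shifts were present in all 4 plants and were deepest on the plant 39 array in those 23, whereas in the other 2 a P06 plant was at least as low. The plant 39 array also had the most spots flagged as outliers, 861 against 210 on the plant 15 array and 229 to 244 on the P06 arrays. The part of the array in these shifts was not tested.

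In the upward direction, 25 regions with 189 probes, at 17 loci, reached a mean of 0.5 in both plants. A region whose ends differed between the plants was counted once per plant. The plants were not alike at all of them, as 6 probes on chromosome 20 averaged 3.57 in plant 39 and 0.88 in plant 15. Another 19 regions with 193 probes reached it in 1 plant and lay between 0.25 and 0.5 in the other. The 5 loci with most probes were chromosome 6 from 11971239 to 12384181 (37 probes, 0.58 in plant 15 and 0.64 in plant 39), chromosome 9 from 4244098 to 4264029 (24 probes, 0.59 and 0.72), chromosome 1 from 42479545 to 42495015 (17 probes, 0.53 and 0.51), chromosome 18 from 16933716 to 16942633 (14 probes, 0.51 and 0.53) and chromosome 18 from 11241642 to 11268705 (13 probes, 2.74 and 2.75). In P06 the same loci had means from 0.51 to 0.65 at the first 4 and of 2.83 and 2.90 at the last. Medians in plants 15 and 39 were only 0.30 and 0.44 on chromosome 6, and 0.43 and 0.46 on chromosome 9. Single probes reached 4.38 and 4.57 on chromosome 6, and 2.74 and 3.65 on chromosome 9. At the last locus the medians were 1.78 and 1.73. The span on chromosome 6 held 717 probes in all, which averaged 0.028 in plant 15 and 0.051 in plant 39. Only short parts of that span were therefore high. Of the 68 probes called higher in the line mean, 58 were at 1 or higher in both P06 plants and 27 lay on chromosome 18. The “M92-220” signal was not well above background on both P05 arrays at 48 of the 68. By the same measure the mutant signal, Cy3, was dim on both at 26 of the 68. The size of these ratios is therefore uncertain.

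The search found 0 regions high in plant 15 alone, although 93 probes were so in runs of single probes and 10 after normexp background correction. In plant 39 alone, 12 regions with 55 probes were high, at 2 loci. On chromosome 20 from 37369366 to 37906854, 52 probes had a mean of 1.89 in plant 39 and 0.037 in plant 15. On chromosome 6 from 51253321 to 51254394, 3 probes had a mean of 1.95 in plant 39 and -0.20 in plant 15. P06 stood with plant 15, at 0.082 and 0.047 on chromosome 20 and at -0.22 and -0.011 on chromosome 6.

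The chromosome 20 locus was part of a longer stretch in which plant 39 departed from plant 15 in both directions. Between 36656550 and 37951243, over 1295 kb and 2196 probes, plant 39 was higher by 1 or more at 75 probes and lower by 1 or more at 22. The limma test called 38 of these higher and 15 lower. The probes between were mostly unchanged, with 90.5% of the stretch within 0.5 of plant 15. At the 75 higher probes the mean was 2.83 in plant 39 and 0.18 in plant 15, and at the 22 lower probes it was -2.61 in plant 39 and 0.11 in plant 15.

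It was plant 39 that departed from “M92-220” in this stretch. Of the 97 shifted probes, plant 15 was within 0.5 of 0 at 80, P06 plant 35 at 76, P06 plant 45 at 81 and plant 39 at 0. Some higher probes were dim in “M92-220”, with Cy5 not well above background at 24% of the 75 on the plant 15 array and 21.3% on the plant 39 array. By the same measure, Cy3 was dim at 28% of them in plant 15 and at 4% in plant 39.

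A stretch on chromosome 14, from 45178835 to 45759377, went mostly down. Over 581 kb and 934 probes, plant 39 was lower by 1 or more at 51 probes and higher at 4, and 20 of the lower ones and 0 of the higher ones were called. At the 51 probes the mean was -2.18 in plant 39 and 0.13 in plant 15. Another stretch, on chromosome 6 from 51022085 to 51407729, went mostly up, with 14 probes higher and 1 lower by 1 or more over 386 kb and 553 probes. At the 14 probes the mean was 3.24 in plant 39 and 0.15 in plant 15, and 8 were called higher. At 42.9% of the 14 the “M92-220” signal was not well above background on the plant 15 array.

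**Figure D4:**
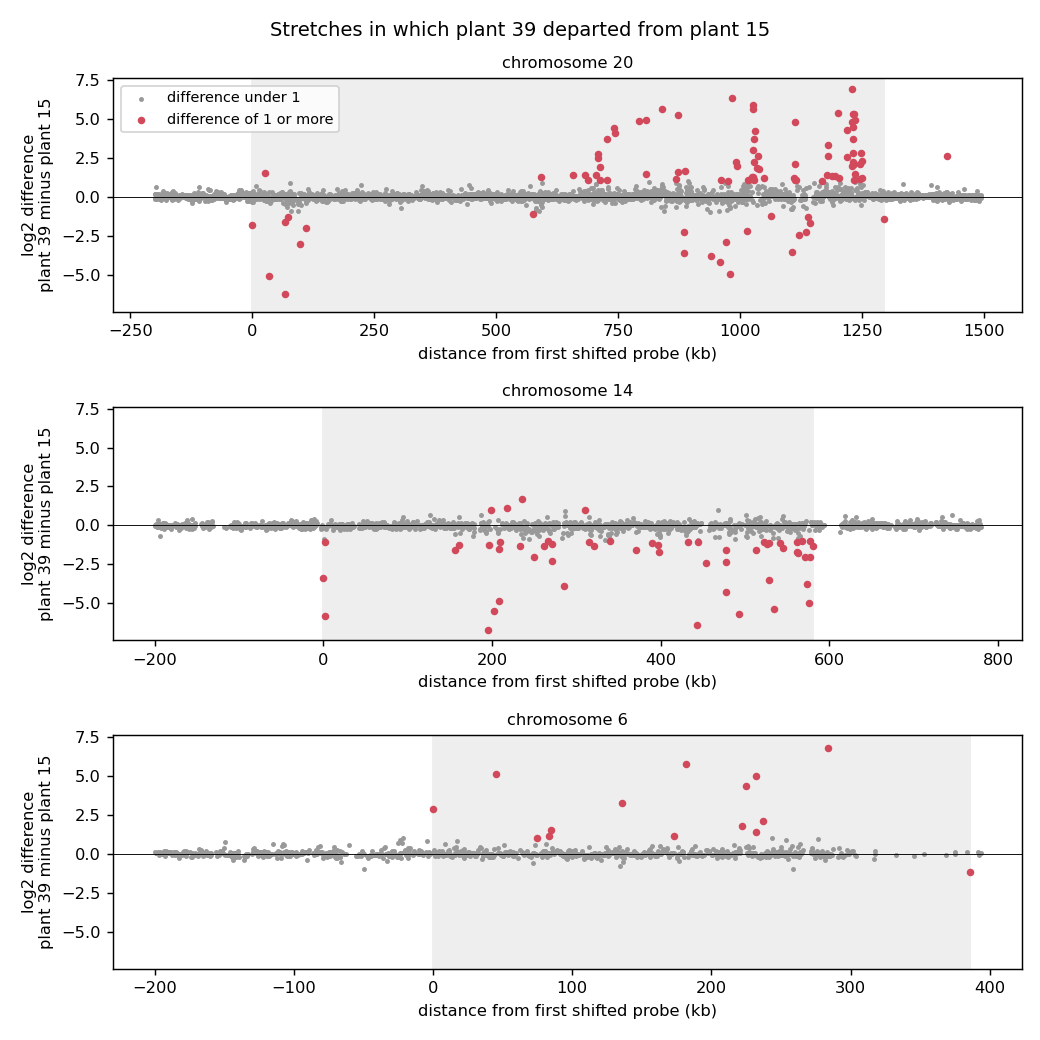
Log2 difference of plant 39 minus plant 15 for each probe (vertical axis) against the distance from the first shifted probe in kb (horizontal axis), for the stretches on chromosomes 20, 14 and 6; colored points differ by 1 or more, and the gray band runs from the first to the last such probe of the stretch as defined in the text. Chromosome 20 holds 75 higher and 22 lower probes, chromosome 14 mainly lower ones (51 of 55) and chromosome 6 mainly higher ones (14 of 15), among many probes near 0.

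Windows of 1 Mb were also counted in which plant 39 was higher by 1 or more at 3 or more probes and lower by 1 or more at 3 or more. They numbered 51 of 958, on 14 chromosomes, and the same count between the P06 plants was 39. Chromosome 20 from 37 Mb led with 89 shifted probes, followed by chromosome 14 from 45 Mb with 55. The next were chromosome 18 from 8 Mb with 27, chromosome 3 from 6 Mb with 21 and chromosome 16 from 27 Mb with 20. At 24 of the 27, 16 of the 21 and 16 of the 20 probes of these the “M92-220” signal was not well above background on both P05 arrays, and the P06 plants differed by 1 or more at 25, 19 and 17 probes of the same windows. The chromosome 20 and 14 windows stood apart from this background, with 3 and 0 such probes between the P06 plants.

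At a difference of 2, or after normexp background correction, 2 windows remained, the one on chromosome 20 and one on chromosome 2 from 39 Mb. The chromosome 2 window is described because it remained, and was chosen after its values were seen. Its 6 probes that were high in both plants, between 39551272 and 39726859, averaged 2.75 in plant 15 and 0.78 in plant 39, against 2.82 and 2.45 in P06. At 50% of the 6 probes Cy5 was not well above background on each array, and in plant 39 Cy3 was dim at 50% as well, so the size of these ratios is uncertain.

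The difference profile was searched for regions in the same way. It gave 12 regions with 670 probes at which plant 39 was higher and 11 regions with 386 probes at which it was lower by 0.5 or more. Between the P06 plants the same search gave 0 regions in either direction. Single probes apart by 1 or more numbered 1769 higher and 1341 lower in P05, and 713 and 794 in P06, while the robust SD of the difference over all probes was 0.125 in P05 and 0.117 in P06.

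This search, which was chosen after the data were seen, added 1 stretch with an intermediate ratio. On chromosome 7 from 7263994 to 7281283, 17 probes over 17.3 kb had a mean of -0.88 in plant 15 and 0.029 in plant 39. They ranged from -1.15 to -0.33, with a median of -0.85, in plant 15 and from -0.26 to 0.29 in plant 39, with no overlap. The P06 means were 0.043 in plant 35 and 0.026 in plant 45. The mean of plant 15 corresponds to 0.544 of the “M92-220” signal. Of the 17 probes, 0 were called singly in the difference of the plants, where the test asks for a difference beyond 1 and the mean difference was 0.91.

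Lastly, the single probe on chromosome 8 that led the study to its candidate gene was examined in P05. Probe Gm_CUST_P11209911, at 6358131 to 6358190 on chromosome 8, lies in Glyma.08G084300, an ortholog of KASI. KASI is β-ketoacyl-[acyl carrier protein] synthase I, an enzyme that elongates fatty acids in plastids. The ratio was -6.49 in plant 15 and -0.032 in plant 39, against -6.38 in P06 plant 35 and -6.77 in P06 plant 45. Plant 15 thus stood with the P06 plants and plant 39 with “M92-220”.

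Cy3 at this probe was not well above background in plant 15, and the ratio is a bound of at least 21.2-fold lower. Plant 39 exceeded plant 15 by 6.45. The study had picked this probe, within its mapped interval, for a low ratio on arrays of this series. Tests at this probe are therefore no separate support, and the single plants are given without one. The line mean was -3.26 ± 4.56 (SD, n = 2) and did not pass the limma test against 0 (standard error 1.26, adjusted p = 0.0896). The 10 nearest probes lay from -0.41 to -0.060 in plant 15 and from -0.49 to 0.016 in plant 39. The low signal was therefore limited to 1 probe. The study found the probe low in each of its replicate hybridizations, which it places in this same series. It does not say which plants these were. Among the arrays analyzed here, those of plants 15, 35 and 45 were low at the probe and that of plant 39 was not. By sequencing, it placed a small deletion and a breakpoint of a reciprocal chromosome translocation at the probe. A low ratio there need not mean that the whole probe sequence is missing. Whether plant 15 carries the translocation was not tested. Between 3 and 12 Mb of chromosome 8, 1 of 15962 probes was at -2 or lower in plant 15 and 0 in plant 39. The next lowest probe of plant 15 was at -1.10, and the lowest of plant 39 at -1.41.

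**Figure D5:**
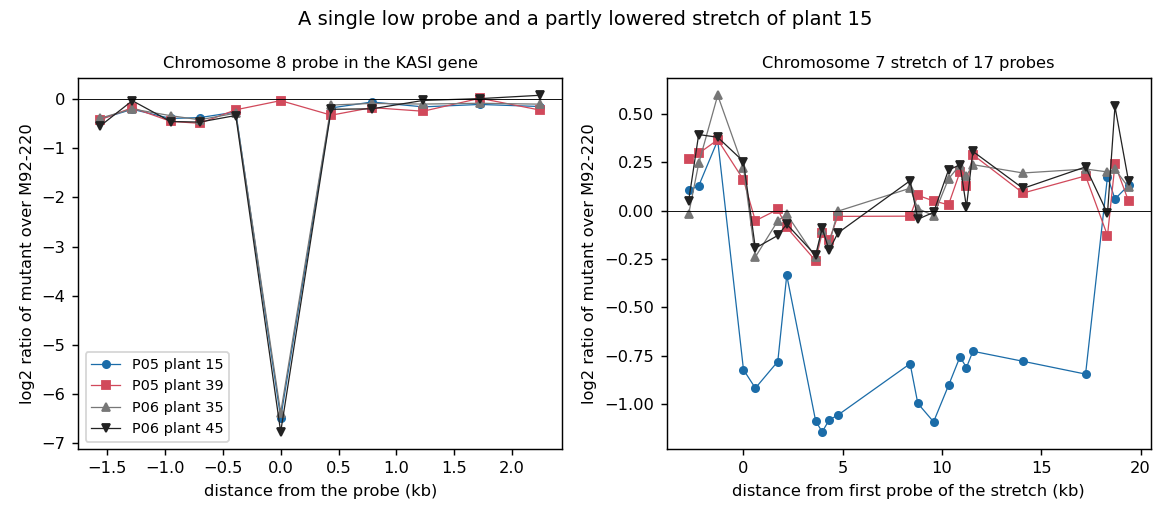
Log2 ratio of mutant over “M92-220” (vertical axes) in the 4 plants at the chromosome 8 probe in the KASI ortholog and its 10 nearest probes (left, distance from the probe in kb) and at the 17 probes of the chromosome 7 stretch with 3 probes on each side (right, distance from the first probe of the stretch in kb). On the left plants 15, 35 and 45 fall below -6 at a single probe while plant 39 stays near 0, and on the right plant 15 alone lies lower, at a mean of -0.88.

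Plant 15 did not share all low probes of P06. In the interval of chromosome 7 from 25564698 to 29399801, 718 of 1009 probes were at -2 or lower in P06 plant 35 and 719 in P06 plant 45. In P05 there were 0 such probes in either plant, and the means were -0.00091 in plant 15 and -0.037 in plant 39. This interval therefore separated plant 15 from P06, whereas the loci of chromosomes 6, 10 and 14 and the chromosome 8 probe did not.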

How the data were processed

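The authors deposited Agilent Feature Extraction 12.0.0.7 output for each array, with a spot intensity per dye. Per the file headers, the software had subtracted background, removed spatial trends and scaled the dyes linearly. It also holds a log10 ratio with its error, per the file headers, and the error set the weights of the region search. A deposited table of processed log2 ratios differed from the scanner ratios by a constant per array, to within 0.01 at 99.98% or more of probes, and lacked 8054 probes listed on Chr014, which were taken as chromosome 14. The number of arrays, 1 per plant, limits the precision. Dyes were not swapped, so a probe's dye bias stays in each ratio and cancels in the difference of the plants.

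Of 963719 spots, 960745 were probe spots. Flagged spots (210 to 861 per array) were left out, spots of a probe were averaged, and log2 ratios of the processed intensity were centered on the array median. Tests used limma 3.58.1 (R 4.3.3, Benjamini-Hochberg over all probes) on the 951298 probes with a value on every array. Counts come from treat against 1, and the line mean at the chromosome 8 probe was tested against 0 with eBayes. The line mean used all 4 arrays with 1 mean per line. Each plant, and plant 39 minus plant 15, used the spread of the P06 plants. In simulated data for 951298 probes, the line mean test recovered 100% of changes of 2 or 4. The test of plant 39 minus plant 15 recovered 92% of changes of -2, 96% of changes of 2 and 100% of changes of 4 or -4. Wrong calls numbered 0 in each. The simulation gave a probe the same spread on all 4 arrays and held no dim signal. It therefore cannot show how many calls on the real arrays are wrong. P-values measure the spread between these arrays and leave out that of “M92-220”.

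Regions came from an interval search modeled on ADM-2, which the study's methods name (score of at least 6, 3 to 3000 probes, numpy 2.4.6). On a shuffled profile of 57559 probes it found 1184 of 1184 probes of 40 set deletions, with 0 wrong. Shuffling removes trends of the ratio along a chromosome, so this check cannot show wrong regions that such trends would give. A region was low in 1 plant only where the other plant's mean was above -1, and high in 1 plant only where it was below 0.25. Regions less than 1000 kb apart formed a locus. Every low locus, the 5 high loci with most probes of each class, the 5 windows with most shifted probes and the chromosome 8 probe are named. The members, loci and lists were chosen with earlier results of these data known. Normexp used the median spot signals, the stretches of chromosomes 6, 14 and 20 and the difference search were set after the data were seen, and all columns of the ratio table could be matched to a plant.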

Additional observations from a re-analysis of the deposited data

How the results depend on the processing

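No paired analysis was possible because no plant number occurs in both lines. Each plant has 1 array, so a dim signal limits most values of the low loci to a bound, and leaving out a P06 plant left no spread for the tests of single plants, which were not run that way. Of 123 values recomputed under alternatives, 81 stayed within 1.5 times of the main count or on the same side of the threshold, 40 counts moved further and 2 values came to pass the test. The counts of probes low in plant 15 only (482 to 579) and in plant 39 only (296 to 385) stayed within 1.5 times of the main count under every alternative tried for them, the search on the difference between the plants included. Where values moved, the cause was not tested unless stated.

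Probes low in both plants numbered 71 at a limit of -1, 7 in runs of single probes, 12 with at least 5 probes and 12 after normexp. Probes high in both numbered 28 at a limit of 1, 1403 in runs, 100 at a score of at least 8 and 49 after normexp. Probes high in plant 15 only numbered 93 in runs and 10 after normexp, and those high in plant 39 only 91 in runs, 29 at a score of at least 8, 89 with at least 5 probes and 88 with centering by chromosome. Windows with shifts in both directions numbered 22 at 500 kb, 12 with at least 5 probes each way, 2 at a difference of 2, 2 after normexp and 30 in the table of processed ratios. Higher probes after normexp numbered 23 for the line mean, 68 for plant 15 and 98 for plant 39, and without dim probes 25, 86 and 305.

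Tested with eBayes against 0 in place of treat, which is less strict by construction, lower and higher probes numbered 571 and 977 for the line mean, 1098 and 1593 for plant 39 minus plant 15, 934 and 1263 for plant 15 and 1393 and 1887 for plant 39. With the P05 arrays alone the line mean had 156 higher probes. Leaving out each array in turn gave 52 to 594 lower and 156 to 474 higher probes for the line mean. Without plant 15 the line mean was plant 39 alone, and without plant 39 it was plant 15 alone. The spread then came from the P06 plants, so these fits repeat the tests of the single plants. The study had picked the chromosome 8 probe on arrays of this series, so tests there are no separate support. The line mean at this probe passed the limma test after normexp (-1.28, adjusted p = 0.0128). It was -6.49 without plant 39, where it also passed, and -0.032 without plant 15. The adjusted p over the other alternatives ran from 0.0784 with the P05 arrays alone to 0.0878 with no centering.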
